A study of Mus musculus with 19 samples.

Results

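Cathepsins are the main proteases of the lysosome, the acidic compartment in which cells break down proteins taken up from outside or delivered by autophagy. They are made as inactive precursors and activated at low pH. Ctsd is an aspartic protease, Ctsa a serine carboxypeptidase, and Ctsb, Ctsc, Ctsf, Ctsh, Ctsk, Ctsl, Ctss and Ctsz are cysteine proteases. In the brain, microglia and other macrophages are rich in several of them, and Ctss is used as a microglial gene, whereas Ctsb, Ctsd and Ctsl are also made by neurons.

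These 10 genes were taken by name, out of 48709 genes in the count files, and their messenger RNA was followed in 19 libraries from the microdissected CA1 region of the hippocampus. All 10 were among the 19286 genes tested, which passed a minimum of 5 reads in 50% or more of the libraries. Old mice of 16.5 months had been injected into the dorsal hippocampus with lipid nanoparticles that carried anti-miR-mix (n = 7), a mixture of inhibitory oligonucleotides against miR-146a-5p, miR-181a-5p and miR-148a-3p. Old control mice of 16.5 months (n = 6) and young mice of 3 months (n = 6) received nanoparticles with scrambled oligonucleotides, so that every mouse was injected and a young group with the inhibitors was not analysed here. Per the study's methods, the mice were male wild-type C57B/6J. Replicates are separate libraries by their labels, and where nothing states that each came from its own animal, the p-values measure the spread between these libraries.

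Libraries held 26653511 to 38908947 reads assigned to genes. Microdissected tissue holds many cell types, and in such bulk RNA fewer cells of a type and less RNA per cell cannot be told apart. Neuronal and CA1 pyramidal marker genes were present in every library (summed CPM, reads per 1000000 library reads, of 8 genes each between 7228 and 8096, and between 950.2 and 1390). Old control replicates 5 and 6 were closer to each other than any other pair within a group (chi-square per degree of freedom 2.18, next lowest 6.10, over 12780 genes), and results are also given with both as 1 library. The log2 values that the authors deposited differ from the counts by a term that scales with a whole number (1, 2, 3 or 4) assigned to each library, called the adjustment number here, whose origin is not described. Number 3 was held by 2 young and 3 old anti-miR-mix libraries and by 0 old control libraries.

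The 3 microRNAs and the inhibitors are shown to state what was blocked and what a matching site in a cathepsin messenger would look like. The mature microRNAs are given 5′ to 3′ (RefSeq, GRCm38.p6), with the seed, bases 2 to 8, in capitals:
miR-181a-5p: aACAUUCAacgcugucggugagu
miR-148a-3p: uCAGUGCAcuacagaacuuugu
miR-146a-5p: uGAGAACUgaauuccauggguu
No seed is shared between them. They lie at chr1:137966468-137966490 (plus strand) and chr2:38852741-38852763 (plus strand) for miR-181a-5p, at chr6:51269829-51269850 (minus strand) for miR-148a-3p, and at chr11:43374435-43374456 (minus strand) for miR-146a-5p. The inhibitors listed by the study are exact complements of most of each microRNA, and the capitals mark the bases that pair with the seed:
inhibitor of miR-181a-5p: actcaccgacagcgtTGAATG
inhibitor of miR-148a-3p: caaagttctgtagTGCACT
inhibitor of miR-146a-5p: acccatggaattcAGTTCTC
The libraries were made from polyadenylated RNA, so that the levels of the mature microRNAs were not read in them.

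Sites for these microRNAs were sought in the longest annotated 3′ untranslated region (3′UTR) of each gene, as an exact match of 7 bases to the seed. Of the 10 cathepsin genes, 2 held such a match, against 34.7% of the 15338 tested genes with an annotated 3′UTR. Ctsb held 1 match to miR-146a-5p, which 12.3% of tested genes hold, and Ctsz held 1 match to miR-148a-3p, which 14.8% hold. No cathepsin gene held a match to miR-181a-5p (18.0% of tested genes). Both sites are printed with the match in capitals:
Ctsb, chr14:63142784-63142810, plus strand, GRCm38: ggcccagtgcAGTTCTCtggagaaagc
Ctsz, chr2:174427697-174427723, minus strand, GRCm38: gaaacacaacTGCACTGggaccctccg
The site of Ctsb starts at base 465 of a 3′UTR of 3594 bases and that of Ctsz at base 159 of 379 bases. The 3′UTRs of the 10 genes ran from 218 bases (Ctss) to 4761 bases (Ctsl), where the median over tested genes was 1153 bases. A match describes the letters only.

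To compare the genes with each other, levels were divided by the length of each gene's merged exons. In young libraries, Ctsb was highest at 98.7 ± 2.71 CPM per kilobase (SD, n = 6), followed by Ctsd at 71.2 ± 5.28 and Ctss at 69.0 ± 15.7, which overlapped. Ctsz (26.5 ± 3.66), Ctsa (21.0 ± 1.02), Ctsl (11.99 ± 0.434) and Ctsf (11.9 ± 0.481) came next. Of these, only Ctsl and Ctsf overlapped each other in range. Ctsh (2.61 ± 0.245), Ctsc (2.15 ± 0.408) and Ctsk (1.79 ± 0.192 CPM per kilobase) formed the lower end, where each overlapped its neighbour. Read counts per library ran from 46 to 106 for Ctsk and from 15363 to 28920 for Ctsb.

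In old control libraries Ctsb (98.95 ± 3.15 CPM per kilobase), Ctss (87.1 ± 14.9) and Ctsd (74.7 ± 4.20, SD, n = 6) led, and each overlapped the next. In old anti-miR-mix libraries Ctss (130.4 ± 26.5), Ctsd (117.9 ± 21.7) and Ctsb (115.3 ± 10.7 CPM per kilobase, SD, n = 7) overlapped, so their order could not be told apart. With the longest transcript in place of merged exons Ctsb came first in all 3 groups, and Ctsf moved from rank 7 to rank 4 in young libraries. Ranks 8 to 10 were held by Ctsh, Ctsc and Ctsk in every group under both lengths.

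**Figure D1:**
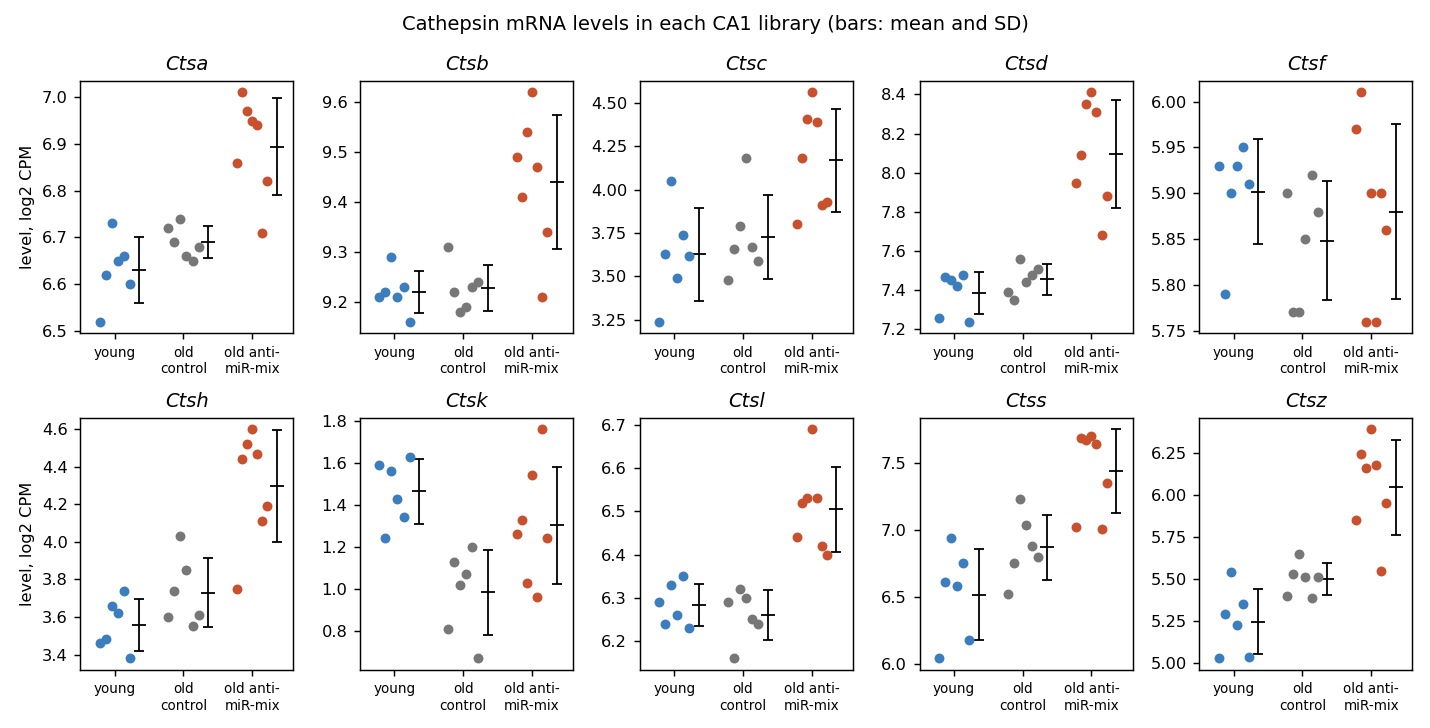
Level of each cathepsin gene in each library as log2 CPM (y axis, a separate scale per gene) in replicate order, with 6 libraries each of young and old control and 7 of old anti-miR-mix. Points are libraries and the bars to their right give the mean and SD. Old anti-miR-mix libraries lie above all old control libraries for Ctsd and Ctsl, and old control libraries lie below all young libraries for Ctsk.

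The effect of age was addressed by comparing old control with young libraries. Of the 10 genes, 1 fell, Ctsk, and 0 rose at an adjusted p under 0.05 in edgeR's quasi-likelihood test with Benjamini-Hochberg adjustment over all genes tested. For comparison, 1.34% of tested genes were lower and 1.32% higher at this threshold. An unadjusted p under 0.05 was reached by 3 of the 10 genes, and DESeq2 also called 1, Ctsk. The median log2 fold change of the 10 genes was 0.06, where the median over all tested genes was 0.006.

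Ctsk encodes the collagen-degrading cathepsin K of osteoclasts and fibroblasts, and was the least abundant of the 10. Its level was between 1.24 and 1.63 log2 CPM (median 1.49) in young libraries and between 0.67 and 1.20 (median 1.05) in old control libraries, so the groups did not overlap. The same held in the lower direction for 1.28% of tested genes. The log2 fold change was -0.49 (adjusted p = 0.0476 in edgeR's quasi-likelihood test, SE 0.13), or 0.711 of the young level. This call was at the edge of the threshold: it was kept in 5 of 19 fits that left out 1 library, in which the log2 fold change lay between -0.54 and -0.43 and the adjusted p between 0.0284 and 0.106, and it was lost with old control replicates 5 and 6 as 1 library (adjusted p = 0.0694). Within adjustment numbers 1, 2 and 4 Ctsk was lower in old control by 3 of 3 differences of the mean log2 CPM (-0.62, -0.20 and -0.55). These rest on 2 old control libraries in each number and on 1, 1 and 2 young libraries. The 6 genes used as markers of fibroblasts and meninges had a summed level of 36.96 to 125.8 CPM in young and 35.20 to 62.79 CPM in old control libraries, with 6 of 6 log2 fold changes below 0 and 0 past the threshold. Their part in the difference was not tested.

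Ctss, which in antigen-presenting cells cuts the invariant chain of MHC class II, lay between 6.04 and 6.94 log2 CPM in young (median 6.60) and between 6.52 and 7.23 in old control libraries (median 6.84). The groups overlapped, and the log2 fold change of 0.34 (adjusted p = 0.246 by edgeR, SE 0.15) was not past the threshold. With the adjustment number as a factor, the fit gave a log2 fold change of 0.48 (adjusted p = 0.0155, SE 0.10), and the within-number differences were 0.60, 0.52 and 0.37. Thus the 1 cathepsin gene past the threshold with age was Ctsk in the reported fit and Ctss in the fit with that factor, where the adjusted p of Ctsk was 0.0743. Ctsz, a carboxypeptidase also known as cathepsin X, had a log2 fold change of 0.24 (adjusted p = 0.243, SE 0.11), with 5.03 to 5.54 log2 CPM in young and 5.39 to 5.65 in old control libraries.

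The other 7 genes had log2 fold changes with age between -0.05 (Ctsf) and 0.18 (Ctsh) and adjusted p-values of 0.461 or more. For Ctsb the 95% interval of the log2 fold change was -0.10 to 0.11, for Ctsl -0.11 to 0.07, for Ctsf -0.15 to 0.04 and for Ctsa -0.04 to 0.15. For Ctsd it was -0.13 to 0.27, and for Ctsc it was wider, -0.20 to 0.40.

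**Figure D2:**
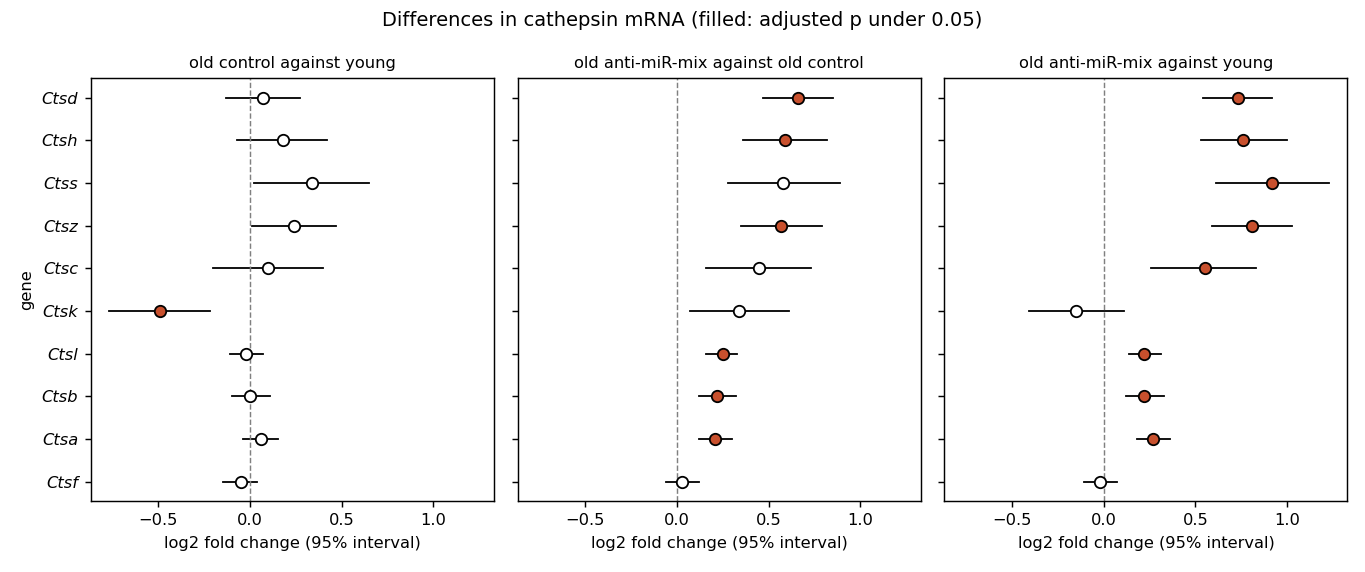
Log2 fold change (x axis) of each cathepsin gene (y axis) in the 3 comparisons, from the fit over all 19 libraries. Points are estimates, lines are 95% intervals, and filled points have an adjusted p under 0.05: 1 gene with age (Ctsk, lower), 6 in old anti-miR-mix against old control and 8 in old anti-miR-mix against young, all of these higher.

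The effect of the inhibitors in old mice was addressed by setting old anti-miR-mix against old control libraries. Of the 10 genes, 6 rose (Ctsa, Ctsb, Ctsd, Ctsh, Ctsl and Ctsz) and 0 fell at an adjusted p under 0.05, where 0.669% of all tested genes rose. All 10 log2 fold changes were above 0, and their median was 0.40, where that of all tested genes was 0.0. An unadjusted p under 0.05 was reached by 9 of 10. Summed over the 10 genes, the level was 1170 to 1242 CPM in old control and 1259 to 1758 CPM in old anti-miR-mix libraries, which did not overlap.

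Ctsd, the aspartic protease and the cathepsin whose loss in mice and people gives a severe neuronal storage disease, showed the clearest difference. It lay between 7.35 and 7.56 log2 CPM in old control (median 7.46) and between 7.68 and 8.41 in old anti-miR-mix libraries (median 8.09), with 7.24 to 7.48 in young libraries. The lowest treated library, replicate 6, was thus above the highest library of both other groups. Among all tested genes, 0.425% had old anti-miR-mix libraries entirely above old control libraries. The log2 fold change of Ctsd was 0.66 (95% interval 0.47 to 0.85, adjusted p = 0.00277 by edgeR, SE 0.09), a level 1.58 times that of old control. It passed the threshold in 19 of 19 fits that left out 1 library. With the adjustment number as a factor it was 0.51 (adjusted p = 0.0168, SE 0.08). Within numbers 1, 2 and 4 the differences were 0.58, 0.48 and 0.19, from 1, 2 and 1 treated libraries against 2 old control libraries each.

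Ctsl, an endopeptidase of broad specificity, was the other gene whose old groups did not overlap. It lay between 6.16 and 6.32 log2 CPM in old control (median 6.27) and between 6.40 and 6.69 in old anti-miR-mix libraries (median 6.52), and young libraries, at 6.23 to 6.35, were also below all treated libraries. The increase was small and even, with a log2 fold change of 0.25 (adjusted p = 0.0102, SE 0.04), or 1.19 times the old control level. It passed the threshold in 19 of 19 fits without 1 library. With the adjustment number as a factor it was 0.20 (SE 0.04) and the adjusted p was 0.122, while the differences within numbers 1, 2 and 4 were 0.22, 0.15 and 0.17.

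Ctsz and Ctsh, both exopeptidases (Ctsz a carboxypeptidase, Ctsh an aminopeptidase), rose by about the same amount. Ctsz lay between 5.39 and 5.65 log2 CPM in old control (median 5.51) and between 5.55 and 6.39 in old anti-miR-mix libraries (median 6.16), and 6 of 7 treated libraries were above all old controls. Its log2 fold change was 0.57 (adjusted p = 0.0156, SE 0.10). Ctsh lay between 3.55 and 4.03 (median 3.68) in old control and between 3.75 and 4.60 (median 4.44) in old anti-miR-mix libraries, again with 6 of 7 above all old controls. Its log2 fold change was 0.59 (adjusted p = 0.0190, SE 0.11). The treated library inside the control range was replicate 6 for Ctsz and replicate 1 for Ctsh. With the adjustment number as a factor the log2 fold changes were 0.41 and 0.42 and the adjusted p-values 0.122 and 0.132. The within-number differences ran from 0.10 to 0.51 for Ctsz and from 0.08 to 0.53 for Ctsh.

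Ctsb, an abundant endopeptidase that also removes dipeptides from the carboxyl end, and Ctsa, which besides its own activity stabilises lysosomal beta-galactosidase and neuraminidase, rose by smaller amounts. Ctsb lay between 9.18 and 9.31 log2 CPM in old control (median 9.22) and between 9.21 and 9.62 in old anti-miR-mix libraries (median 9.47), a log2 fold change of 0.22 (adjusted p = 0.0382, SE 0.05). Ctsa lay between 6.65 and 6.74 (median 6.68) and between 6.71 and 7.01 (median 6.94), a log2 fold change of 0.21 (adjusted p = 0.0254, SE 0.04). For both genes 6 of 7 treated libraries were above all old controls, and replicate 6 was the exception. Within numbers 1, 2 and 4 the differences were 0.23, 0.19 and -0.02 for Ctsb and 0.15, 0.22 and 0.05 for Ctsa. With the adjustment number as a factor neither gene passed the threshold. Among 19 fits without 1 library Ctsa was called in 11 and Ctsb in 8, where Ctsh was called in 13 and Ctsz in 17. Ctsa shares its locus with Pltp and Neurl2, Ctsb with Fdft1, and Ctsz with Nelfcd, all on the opposite strand. As use of strand in counting is not stated, reads of these genes cannot be told apart from those of the cathepsins where their exons overlap.

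The other 4 genes did not pass the threshold. Ctss lay between 6.52 and 7.23 log2 CPM in old control (median 6.84) and between 7.01 and 7.70 in old anti-miR-mix libraries (median 7.64). Its log2 fold change was as large as that of Ctsz, 0.58, with a wider error (adjusted p = 0.0751, SE 0.15), and DESeq2 called it (adjusted p = 0.0289). Ctsc, the dipeptidyl peptidase that activates serine proteases of immune cells, lay between 3.48 and 4.18 (median 3.67) and between 3.80 and 4.56 (median 4.18), a log2 fold change of 0.45 (adjusted p = 0.167, SE 0.14). Ctsk lay between 0.67 and 1.20 and between 0.96 and 1.76, a log2 fold change of 0.34 (adjusted p = 0.317, SE 0.13). Ctsf, a cysteine protease with an extended propeptide, was the gene nearest to no difference, at 5.77 to 5.92 in old control and 5.76 to 6.01 in old anti-miR-mix libraries. The 95% interval of its log2 fold change of 0.03 was -0.06 to 0.12.

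The number of cathepsin genes called in this comparison depended on how the libraries were modelled, whereas the sign did not. It was 7 with DESeq2, 6 with the deposited log2 values in limma, 3 when the old groups alone were fitted, 3 with old control replicates 5 and 6 as 1 library (Ctsd, Ctsl and Ctsz), and 1 (Ctsd) with the adjustment number as a factor. When the 5 libraries of number 3 were left out, an alternative chosen after seeing the data, 0 cathepsin genes passed (edgeR), 8 had an unadjusted p under 0.05, and 0 of all tested genes passed. In that fit the log2 fold change of Ctsd was 0.44 (adjusted p = 0.120, SE 0.07), of Ctsh 0.40, of Ctsz 0.41 and of Ctsl 0.18. The 3 old anti-miR-mix libraries of number 3 had the highest summed cathepsin levels of all libraries (1612 to 1758 CPM), and no old control library shares their number, so the part of the adjustment number and that of the treatment cannot be told apart in them. All 10 log2 fold changes were above 0 in each of these fits.

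**Figure D3:**
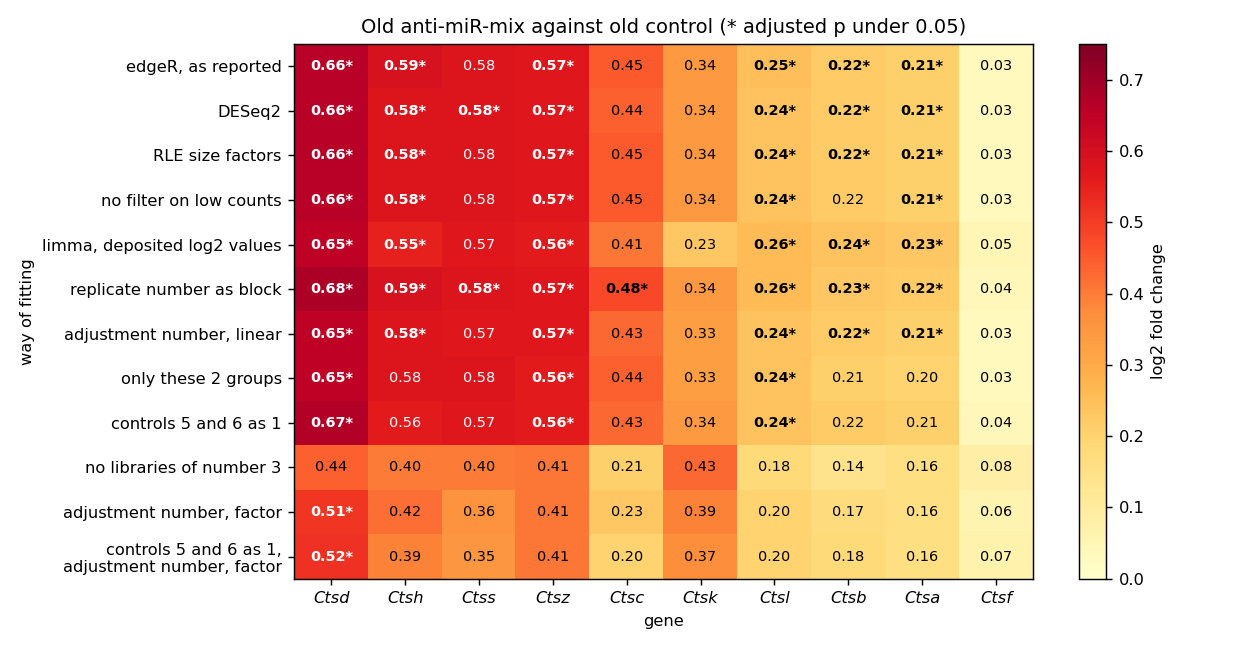
Log2 fold change in old anti-miR-mix against old control libraries for each cathepsin gene (columns, x axis) under each way of fitting (rows, y axis). Colour and printed values give the log2 fold change, and bold type with an asterisk marks an adjusted p under 0.05. Ctsd is called in every way of fitting but the one without the libraries of number 3, in which 0 genes are called, and all values are above 0.

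Old anti-miR-mix libraries were also compared with young libraries, to see where the treated old mice lay relative to young mice. This comparison shares its treated libraries with the one above and its young libraries with the comparison of age. Of the 10 genes, 8 rose and 0 fell, where 4.57% of all tested genes rose, and the 2 others were Ctsf and Ctsk. For 5 genes (Ctsd, Ctsh, Ctsl, Ctss and Ctsz) every treated library was above every young library, which held for 1.79% of tested genes in this direction. None of the 6 genes that rose with treatment had passed the threshold with age.

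Ctss was furthest from young, at 7.01 to 7.70 against 6.04 to 6.94 log2 CPM, a log2 fold change of 0.92 (adjusted p = 0.000479, SE 0.15) or 1.89 times the young level. Ctsz followed at 0.81 (adjusted p = 6.15e-05, SE 0.11), Ctsh at 0.76 (adjusted p = 0.000192, SE 0.11) and Ctsd at 0.73 (adjusted p = 5.04e-05, SE 0.09). Ctsc differed by 0.55 (adjusted p = 0.0183, SE 0.14), and Ctsa, Ctsb and Ctsl by 0.27, 0.22 and 0.22, all by edgeR. These 8 calls were also made with the adjustment number as a factor, and 5 of them (Ctsa, Ctsd, Ctsh, Ctss and Ctsz) without the libraries of number 3. Within each of the numbers 1 to 4, the mean of treated libraries was above that of young libraries for all 8 genes. The least difference was in number 4 for 7 of them (0.01 for Ctsb to 0.55 for Ctss) and in number 1 for Ctsh (0.29). For Ctsb the 1 treated library of number 4 (9.21 log2 CPM) lay below young replicate 5 (9.23). Ctsk, with a log2 fold change of -0.15 (95% interval -0.41 to 0.11, adjusted p = 0.559), and Ctsf, with -0.02 (-0.11 to 0.07), did not pass.

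Microglial markers also differed between the groups. The 12 marker genes, among them Csf1r, Cx3cr1, P2ry12, Tmem119 and Aif1, had a summed level of 441.4 to 575.4 CPM in young, 563.9 to 655.5 in old control and 656.0 to 876.9 in old anti-miR-mix libraries. In old anti-miR-mix against old control, 12 of 12 had a log2 fold change above 0 and 6 rose past the threshold, where 0.669% of all tested genes rose. Among the 6 were the complement genes C1qa (0.63), C1qb (0.59) and C1qc (0.60), Fcrls (0.62) and Csf1r (0.32). P2ry12, a receptor of resting microglia, and Tmem119 had log2 fold changes of 0.03 and 0.07 and did not pass. The 8 markers of macrophages at the brain's borders had 0 calls and 2 genes at an unadjusted p under 0.05 (23.08 to 29.26 CPM in old control, 23.79 to 37.18 in old anti-miR-mix). Blood leukocyte markers summed to 0.693 to 4.575 CPM in old control and 2.169 to 7.364 in old anti-miR-mix libraries. Of 5 tested, 5 had a log2 fold change above 0, 2 had an unadjusted p under 0.05 and 0 were called by edgeR. Against young, 3 of these 5 rose, where 4.57% of all tested genes rose. Among these blood leukocyte markers the most reads in any library were 2 for Ly6g, 7 for Ms4a1, 9 for Cd79a and 17 for Cd3e. They were 21 for Cd3g, 52 for S100a8, 65 for Ccr2 and 81 for S100a9. The 8 oligodendrocyte markers summed to 6482 to 7722 CPM in old control and 6597 to 9756 in old anti-miR-mix libraries, with 8 of 8 log2 fold changes above 0, 7 at an unadjusted p under 0.05 and 0 calls by edgeR. The 6 markers of fibroblasts and meninges, at 33.73 to 118.7 CPM in old anti-miR-mix libraries, had 6 of 6 above 0, 2 at an unadjusted p under 0.05 and 0 calls. With age 2 of the 12 microglial markers rose, Cx3cr1 (0.35) and Sall1 (0.19). Of the 8 oligodendrocyte markers 5 fell with age, where 1.34% of all tested genes fell. Among these 8, 0 had a log2 fold change above 0, and the median was -0.442. They summed to 7343 to 11660 CPM in young libraries. Of the 8 astrocyte markers 1 fell with age and 0 rose. The 8 astrocyte markers summed to 6393 to 7041 CPM in old control and 6135 to 7614 in old anti-miR-mix libraries, with 6 of 8 log2 fold changes above 0, 3 at an unadjusted p under 0.05 (Gfap 0.43, Aldh1l1 0.15 and Slc1a3 0.10) and 0 calls by edgeR. Against young, Gfap (0.77, adjusted p = 0.00124) and Slc1a3 (0.20, adjusted p = 0.0119) rose. The 8 neuronal markers had 8 of 8 log2 fold changes below 0 between the old groups (-0.07 to -0.01), 1 at an unadjusted p under 0.05 and 0 calls, at 7392 to 8096 CPM in old control and 7228 to 7632 in old anti-miR-mix libraries. The 8 CA1 pyramidal markers summed to 1163 to 1390 CPM in old control and 950.2 to 1354 in old anti-miR-mix libraries. Of these 8, 1 had a log2 fold change above 0, 1 had an unadjusted p under 0.05 and 0 were called by edgeR. The part of these cell types in the cathepsin differences was not tested.

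**Figure D4:**
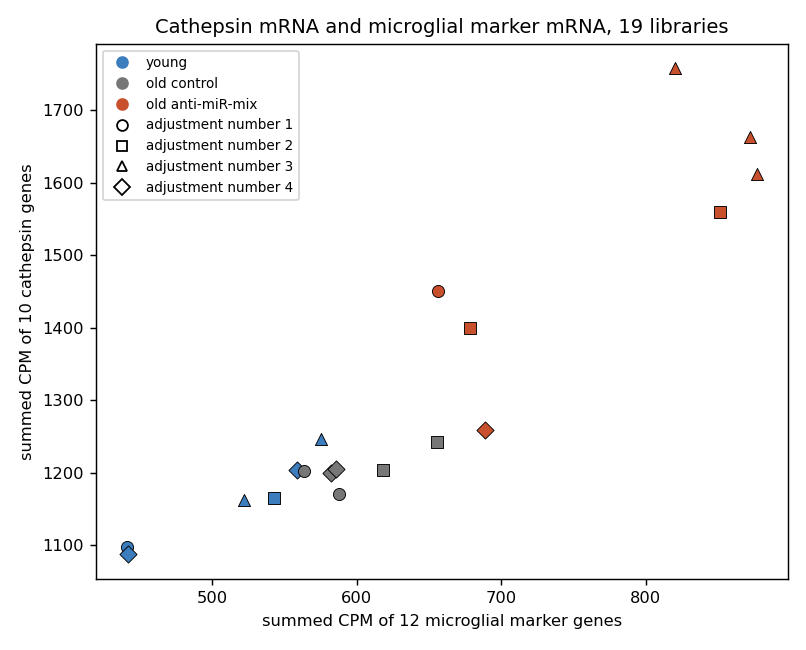
Summed CPM of the 10 cathepsin genes (y axis) against summed CPM of 12 microglial marker genes (x axis) in the 19 libraries. Colour gives the group and shape the adjustment number. The 7 old anti-miR-mix libraries lie at 656.0 CPM or more on the x axis and 1259 CPM or more on the y axis, and those with number 3 are highest on the y axis.

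Within groups, the cathepsin genes split by how they varied between libraries. After each group's mean had been subtracted, Pearson's r over the 19 libraries was 0.88 for Ctss with Ctsz and for Ctsa with Ctsz, 0.85 for Ctsd with Ctsz, and 0.82 for Ctss with both Ctsh and Ctsc. Ctsf and Ctsk stood outside this group, with a median r of -0.22 and -0.25 to the other 9. In the 6 old control libraries alone, r was 0.76 for Ctss with Ctsz, 0.44 for Ctsa with Ctsz and 0.46 for Ctsd with Ctsz. For Ctss with Ctsh and Ctsc it was 0.80 and 0.68. In these libraries Ctsb was at -0.93 with Ctss and -0.74 with Ctsz, but at 0.20 with Ctsa and 0.58 with Ctsf. For Ctsb with Ctss, r was 0.79 in young and 0.60 in old anti-miR-mix libraries. These values are descriptions, since the libraries share preparation and adjustment numbers. The spread within groups was wider for Ctss (SD 0.30 log2 CPM), Ctsc (0.27), Ctsh (0.22), Ctsk (0.22) and Ctsz (0.21) than for Ctsa, Ctsf and Ctsl (0.08 each) or Ctsb (0.09), where the median over tested genes was 0.15.

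The genes whose pattern was most like each member, among 15960 tested genes with a mean of at least 20 reads, were named by the same measure. For Ctss they were Itgb2 (r = 0.97), a leukocyte integrin, and Cd52 (0.96). For Ctsz they were Hcls1 (0.94) and C1qa (0.91), for Ctsc Gcnt1 (0.92) and Cd53 (0.90), and for Ctsa Ctsz (0.88) and Irf8 (0.87). Ctsd was most like Mpeg1 (0.89), a macrophage gene, and Axl (0.87), a receptor for dying cells. Ctsh was most like Add3 (0.94) and Vwa5a (0.90), Ctsl like Npc2 (0.90), the cholesterol carrier of the lysosome, and AA414768 (0.87), and Ctsb like Cyba (0.83) and Grn (0.81). The genes most like Ctsf were Fbxo2 (0.86) and Mvb12b (0.86), and those most like Ctsk were Tspan11 (0.81) and Lrrn4cl (0.81). Ctsk and Ctss are neighbours on chromosome 3, 17423 bases apart, but shared none of these genes.

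Inhibitors of cathepsins were examined next. Of 11 listed cystatins, stefins and propeptide-like inhibitors, 6 were tested. Of these, 2 rose in old anti-miR-mix against old control, where 0.669% of all tested genes rose. Cst7 (cystatin F), an inhibitor of cathepsin C and other cysteine cathepsins within immune cells, was at -0.36 ± 0.82 log2 CPM in young, 0.71 ± 0.94 in old control (n = 6 each) and 2.81 ± 0.86 (n = 7, all SD) in old anti-miR-mix libraries. This was a log2 fold change of 2.10 (adjusted p = 0.0206 by edgeR, SE 0.40). Ctla2b, which resembles the propeptide of cathepsin L, rose by a log2 fold change of 0.78 (adjusted p = 0.0248, SE 0.16) at a mean of 32.2 reads, while its paralog Ctla2a (0.01, adjusted p = 0.989) did not pass. Reads can be split between such close copies. Cst3 (cystatin C), by far the most abundant with a mean of 29020 reads, had a log2 fold change of 0.09 (adjusted p = 0.609), and Cstb (cystatin B) one of 0.23 (adjusted p = 0.160). None of the 6 passed the threshold with age, and 2 had an unadjusted p under 0.05.

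Of 12 further genes named as cathepsins, 3 were tested and 9 had 0 reads in every library. Ctso, expressed at a mean of 1464 reads, differed by a log2 fold change of 0.22 between old anti-miR-mix and young libraries (adjusted p = 0.0169, SE 0.05) and by 0.06 between the old groups (adjusted p = 0.743). Ctse, an aspartic protease outside the lysosome, had few reads (mean 7.84, at most 26). It rose against young (log2 fold change 2.68, SE 0.50, adjusted p = 0.00158) and did not pass against old control (1.76, SE 0.44, adjusted p = 0.0707). Ctsw, a cathepsin of killer lymphocytes, passed in no comparison.

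The rest of the lysosome was counted by lists of 130 genes in all, inhibitors and further cathepsins included, of which 115 were tested. With age 2 rose (Fuca1, 0.22, and Gaa, 0.20) and 0 fell, where 1.32% of all tested genes rose and 1.34% fell. In old anti-miR-mix against old control 11 rose and 0 fell, where 0.669% of all tested genes rose. Against young 28 rose and 0 fell, where 4.57% of all tested genes rose. The median log2 fold change of the 115 genes under treatment was 0.039, against 0.40 for the 10 cathepsins.

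By class, 4 of 23 acid glycosidases and sulfatases rose with treatment, where 0.669% of all tested genes rose. Among the 4 were Gusb (0.38, adjusted p = 0.0115), Man2b1 (0.22, adjusted p = 0.0237) and Hexa (0.27, adjusted p = 0.0240). Of 13 genes for lipid enzymes and their activators 1 rose, Npc2 (0.37, adjusted p = 0.00773). Of 21 membrane proteins 2 rose, Cd68 (0.76, adjusted p = 0.0102) and Laptm5 (0.49, adjusted p = 0.0159), both of which are genes of macrophages. Of 13 sorting genes 1 rose, Grn (0.44, adjusted p = 0.00773), which encodes progranulin, a protein that binds cathepsin D in the lysosome. Among 7 other lysosomal proteases 0 passed in edgeR, 4 had an unadjusted p under 0.05, and Lgmn, the asparaginyl protease that processes several cathepsins, had the lowest p (0.24, adjusted p = 0.0726).

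Of 19 subunit genes of the proton pump that acidifies the lysosome 0 passed in old anti-miR-mix against old control by edgeR, 3 had an unadjusted p under 0.05, 5 had a log2 fold change above 0, and the median was -0.028. The lowest p was that of Atp6v0e (0.18, adjusted p = 0.153). The tissue-restricted subunit Atp6v0d2 had a log2 fold change of 1.14 (adjusted p = 0.247) against old control and rose against young (2.12, SE 0.44, adjusted p = 0.00476) at a mean of 8.58 reads. Of 10 tested regulators of lysosomal genes 1 rose with treatment, where 0.669% of all tested genes rose. It was Tfeb (0.34, SE 0.07, adjusted p = 0.0255), the transcription factor that binds the CLEAR element of lysosomal promoters. Tfeb had a log2 fold change of -0.20 with age (adjusted p = 0.143).

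**Figure D5:**
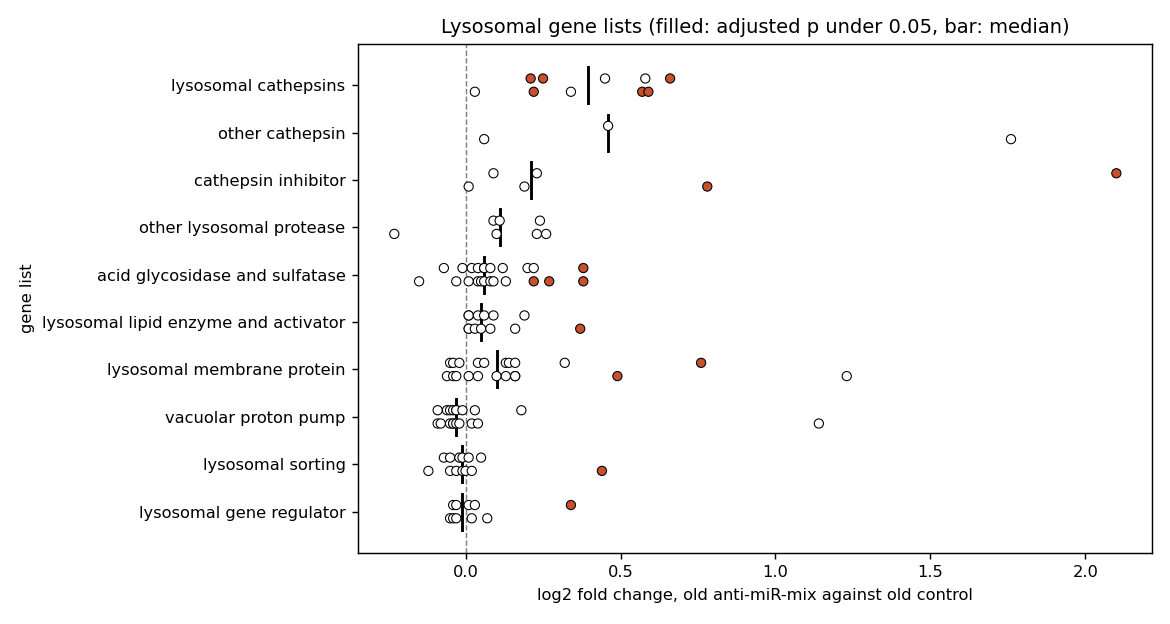
Log2 fold change in old anti-miR-mix against old control libraries (x axis) of each tested gene of the lysosomal lists (y axis). Points are genes, filled where the adjusted p is under 0.05, and bars are list medians. The median is 0.40 for the 10 cathepsins and -0.028 for the 19 subunits of the proton pump.

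None of the list calls in old anti-miR-mix against old control was made with the adjustment number as a factor, where 0 of 115 genes passed in edgeR and 31 had an unadjusted p under 0.05 (11 and 34 in the reported fit, 17 called by DESeq2). Without the libraries of number 3 the counts were 0 and 30. Against young, 8 of the 115 genes passed without these libraries.

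The CLEAR element contains the letters CACGTG, which were sought on both strands in the 250 bases before the RefSeq gene start (GRCm38.p6) of the 8 cathepsin genes with an entry (9 windows). They were present in 4 of the 9 windows, which belong to 4 of the 8 genes, where 6.02% of all 32851 windows hold them. The sites are shown on the strand of the gene with the letters in capitals and up to 12 bases on each side:
Ctsd, chr7:142387908-142387937, minus strand: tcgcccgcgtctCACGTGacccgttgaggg
Ctsd, chr7:142388055-142388077, minus strand: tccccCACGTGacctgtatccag
Ctsa, chr2:164833749-164833772, plus strand: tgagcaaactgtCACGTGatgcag
Ctsl, chr13:64370739-64370768, minus strand: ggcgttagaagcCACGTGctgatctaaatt
Ctsf, chr19:4855074-4855103, plus strand: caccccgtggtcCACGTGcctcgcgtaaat
The letters began 98 and 245 bases before the start of Ctsd, 12 before 1 of the starts of Ctsa, 236 before that of Ctsl and 79 before that of Ctsf. The longer TCACGTGA was held by the first site of Ctsd and the site of Ctsa, and by 0.785% of all windows. Since GENCODE M21 has earlier starts for some transcripts, the first site of Ctsd and those of Ctsa and Ctsl lie in annotated exons. The windows of Ctsc, Ctsk, Ctss and Ctsz held none. A match says nothing about binding.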

How the data were processed

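RNA of 19 CA1 libraries (6 young, 6 old control, 7 old anti-miR-mix) had been sequenced by the authors as single-end reads, with groups taken from the library descriptions. Some control titles begin with the name of the experiment. Per the submitters' processing notes the tools were FastQC 0.11.5, STAR 2.5.2b and featureCounts of Subread 1.5.1, with mm10. The deposited files hold raw counts of reads per gene. A deposited table holds log2 values of 18761 genes, which equal log2(CPM + 1) minus a slope per gene times a whole number per library, to within 3.4e-08. It was used in 1 alternative. No per-sample column was left unassigned (0).

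Counts of the 19286 of 48709 genes that reached 5 reads in 50% or more of libraries were scaled by TMM factors and fitted in edgeR 4.0.16 under R 4.3.3 (quasi-likelihood), with the 3 groups in one fit, no covariate and Benjamini-Hochberg adjustment (threshold 0.05). The code was tested on simulated data. Log2 CPM used a prior count of 2. Depth was 26653511 to 38908947 reads per library. Gene models were those of GENCODE M21 (GRCm38), and the authors' release is not given in the sources used here. Promoter windows and microRNAs came from RefSeq (GRCm38.p6). Of the 10 genes, 8 matched a promoter entry. Alternatives were DESeq2 1.42.0, RLE factors, no filter, limma 3.58.1 on the deposited log2 values, 2 groups only, a replicate block, the adjustment number as a factor or line, old control replicates 5 and 6 as 1, each library left out and, chosen after seeing the data, the libraries of number 3 left out. The members and lists were chosen with earlier results of these data known. From each list and comparison up to 3 genes per direction with the lowest adjusted p were named, otherwise the 1 with the lowest p, besides inhibitors, further cathepsins, markers and the 2 genes most like each member. A gene that this rule would name is not reported here by name.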

Additional observations from a re-analysis of the deposited data

Results flagged for a closer look

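Each cathepsin gene was checked in each group for a library far from the others, by the gap to the nearest library over the group's whole range. Of 30 gene and group sets 1 stood out, where chance gives about 1 in 20. Ctsf was at 5.79 log2 CPM in young replicate 2 (1461 reads), with the nearest young library at 5.90. The gap was 0.70 of the range, over the critical value of 0.625 for 6 libraries.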

How the results depend on the processing

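With age, 1 cathepsin gene was called, and 0 with no filter, with the adjustment number as a line, with old control replicates 5 and 6 as 1 library or without the libraries of number 3 (3 had an unadjusted p under 0.05 in each of these 4 fits), and 0 to 1 without 1 library. In old anti-miR-mix against old control 6 were called, 3 with the old groups alone or with replicates 5 and 6 as 1, 1 with the number as a factor, alone or with replicates 5 and 6 as 1, and 0 without the libraries of number 3. Without 1 library the count was 2 to 7, with 2 without old control replicate 1 or 5 and 3 without old control replicate 2 or 6 or old anti-miR-mix replicate 3 or 4. Against young 8 were called, 5 without the libraries of number 3, and 7 to 8 without 1 library.

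For the 115 lysosomal genes the count with age was 2, with 4 in DESeq2 and in the replicate block, 1 in limma and with replicates 5 and 6 as 1 and the number as a factor, 0 with no filter, the number as a line, replicates 5 and 6 as 1 or without number 3 (13 to 20 at an unadjusted p under 0.05), and 0 to 3 without 1 library. Under treatment it was 11, with 17 in DESeq2, 7 with the old groups alone, 6 with replicates 5 and 6 as 1, 0 with the number as a factor (alone or with replicates 5 and 6 as 1) or without number 3, and 4 to 21 without 1 library. Against young it was 28, with 8 without number 3 and 23 to 31 without 1 library. A fit with fewer libraries has less power, whereas the fit with the number as a factor alone held every library. The cause of the differing counts was not tested in any of these fits.

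Replicate numbers are shared between groups, and whether they pair the libraries was not settled. Of 18 same-numbered pairs 6 had r over 0.1 (-0.17 to 0.214), and in 11 of 36 sets a library was most like its own number. With the replicate block 8 cathepsin genes were called under treatment, and with age 1, Ctss (log2 fold change 0.36) in place of Ctsk. Under treatment the block fit called 249 of all tested genes, against 129 in the reported fit. Signs reversed only where a log2 fold change was near 0. With age Ctsl was 0.0072 with the number as a factor and 0.01 with replicates 5 and 6 as 1 as well, Ctsb -0.0021 with the number as a line and -0.01 in limma, and without 1 library Ctsb ran from -0.01 to 0.02 (-0.0077 without young replicate 6, -0.01 without old control replicate 1) and Ctsc from -0.01 (without old control replicate 4) to 0.19. Ctsf against young was 0.03 without number 3 and ran from -0.04 to 0.0036 (without old anti-miR-mix replicate 5) over fits without 1 library. Depth limits Ctsk most, at 46 to 106 reads.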

Other observations

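The makeup of the cathepsin messenger pool differed between groups. Ctsb made up 51.5% ± 1.55 of the summed cathepsin CPM in young, 49.8% ± 2.07 in old control and 45.8% ± 2.16 in old anti-miR-mix libraries (mean ± SD of 6, 6 and 7 libraries). Ctsd made up 14.4% ± 0.563, 14.6% ± 0.597 and 18.0% ± 1.44, and Ctss 8.01% ± 1.43, 9.82% ± 1.54 and 11.5% ± 1.44. Ctsf made up 5.17% ± 0.350, 4.79% ± 0.238 and 3.91% ± 0.572. These shares depend on gene length and on each other and were not tested.

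Single libraries recurred at the ends of the groups. Old anti-miR-mix replicate 4 was highest of its group for 7 of the 10 genes and replicate 6 lowest for 5, old control replicate 3 was highest for 6, and young replicate 3 was highest for 5. For Ctsk the order was the other way in the treated group, with replicate 6 highest at 1.76 log2 CPM.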
